A study of Homo sapiens with 6 samples.

Results

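The genes described here encode the subunits of the respiratory chain and of ATP synthase in luciferases-expressing HepG2 cells with and without sedanolide. Members were chosen by gene symbol, with earlier results of these data known. They comprise the 13 protein genes of the mitochondrial genome (MT- genes) and protein-coding nuclear genes. The latter are the NDUFA, NDUFB, NDUFC, NDUFS and NDUFV series, SDHA to SDHD, CYC1, and the genes whose symbols start with UQCR, COX4I, COX5, COX6, COX7, COX8, ATP5F, ATP5M or ATP5P. This gave 100 of the 61541 genes in the count table. Of the 13 MT- genes, 7 encode subunits of complex I, 1 of complex III, 3 of complex IV and 2 of complex V. Of the 87 nuclear genes, 36 belong to complex I, 4 to complex II, 10 to complex III, 18 to complex IV (NDUFA4 included) and 19 to complex V (the read-through gene ATP5MF-PTCD1 included). The symbols do not take in the subunit NDUFAB1, which is also an acyl carrier protein, or ATP5IF1, the inhibitor protein of ATP synthase.

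HepG2 is a hepatoblastoma cell line, and these cells carry the ELuc and SLR3 luciferase reporters on a mouse artificial chromosome. Cells given sedanolide at 100 μM for 24 h (n = 3 libraries) were compared with control cells (n = 3 libraries), and both groups carried the reporters. Sedanolide is a phthalide of celery, and the study examined it as an activator of the KEAP1-NRF2 pathway. The labels do not state which vehicle, if any, the control cells received. They also do not say whether the replicates came from separate cultures, so the p-values measure only the spread between these libraries, which may be technical.

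Complexes I to IV pass electrons from NADH and succinate to oxygen, complexes I, III and IV pump protons while doing so, and complex V uses the proton gradient to make ATP. Mitochondrial DNA encodes a few core subunits of every complex except complex II, and the remaining subunits are made in the cytosol from nuclear genes and imported. The mitochondrial genome is transcribed by its own polymerase into long transcripts that are cut into mRNAs, rRNAs and tRNAs. The same complex thus depends on transcripts from separate genomes.

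The expected counts per library were between 16420258 and 26714853, and 3 counts, taken as the floor for a count of 0, corresponded to 0.112 to 0.183 CPM (counts scaled to library size), covering counting error only. The hepatocyte markers ALB, AFP, APOA1, APOB, TTR and SERPINA1 were all detected, from 24.6 CPM (TTR, lowest library) to 18439 CPM (AFP, highest library). Of the markers of other cell types, the leukocyte marker PTPRC reached 0.182 CPM at most and the fibroblast marker COL1A1 0.170 CPM, while PECAM1 was between 3.77 and 5.29 CPM and CD68 between 8.85 and 14.7 CPM. Principal component 1 of log2 CPM, computed from 14009 genes without the members and the mitochondrially encoded genes, held 55.9% of the variance and did not follow the treatment. Sedanolide 3 fell on the same side as controls 1 and 2, and control 3 on that of the remaining treated libraries.

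The coding sequences of the MT- genes lie close together on the circular genome of 16569 bases, and some share bases. MT-ATP8 (chrM:8366-8572) and MT-ATP6 (chrM:8527-9207), both subunits of the proton channel part of complex V, share 46 bases. MT-ND4L (chrM:10470-10766) and MT-ND4 (chrM:10760-12137), both of the membrane arm of complex I, share 7 bases. The expected counts of MT-ATP8, MT-ND4L and MT-ND4 were whole numbers in all 6 libraries, whereas those of MT-ATP6 were not. The shared bases are shown in capitals on the plus strand of GRCh38, at chrM:8507-8592 for the former pair and at chrM:10730-10796 for the latter. Each run of capitals starts with the ATG of the downstream gene and ends with the last base of the upstream gene.
MT-ATP8/MT-ATP6: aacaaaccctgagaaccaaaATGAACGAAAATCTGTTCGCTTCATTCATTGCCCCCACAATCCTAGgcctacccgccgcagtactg
MT-ND4L/MT-ND4: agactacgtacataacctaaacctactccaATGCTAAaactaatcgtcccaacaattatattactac

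The MT- genes also have near-identical copies in the nuclear genome, so their counts depend on how the authors' counting assigned shared reads. A copy on chromosome 1, MTATP6P1, is identical to MT-ATP6 at 98.53% of its 681 bases and was given 1540 to 5005 counts per library. Another, MTCO1P12, matches MT-CO1 at 98.7% and was given 347 to 1546 counts. All 11 copies examined together amounted to 0.468% to 1.54% of the counts of the MT- genes.

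The MT- genes as a group took a larger and more variable part of the libraries than the nuclear members. They took 1.59%, 1.10% and 2.82% of all counts in controls 1 to 3, whereas sedanolide libraries 1 to 3 gave 3.21%, 3.64% and 1.496%. The groups overlapped, since control 3 lay above sedanolide 3, and sedanolide 3 lay below control 1. In bulk RNA, a change in the number of cells that express a gene and a change in RNA per cell cannot be told apart. The nuclear members took 1.03%, 0.942% and 1.21% of all counts in the controls and 1.23%, 1.11% and 0.931% in sedanolide-treated cells, and sedanolide 3 was the lowest of the 6 libraries.

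The ratio of MT- counts to nuclear member counts, which does not depend on library size or scaling, was 1.54, 1.17 and 2.33 in the controls in order of replicate and 2.62, 3.28 and 1.61 in the treated libraries. On the log2 scale this was 0.69 ± 0.50 in control cells and 1.26 ± 0.53 in sedanolide-treated cells (mean ± SD, n = 3 each), a difference of 0.57, close to 1 SD of the libraries of 1 condition. Leaving out control 2 or sedanolide 2 lowered the difference to 0.34 or 0.35, and leaving out sedanolide 3 raised it to 0.86. Within the side of component 1 that holds controls 1 and 2 the difference was 0.26, and within the side that holds control 3 it was 0.33. Both were positive, but each rests on 1 library in 1 of the conditions. With the authors' TPM (a share of transcripts scaled by length) in place of counts the difference was 0.63.

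**Figure D1:**
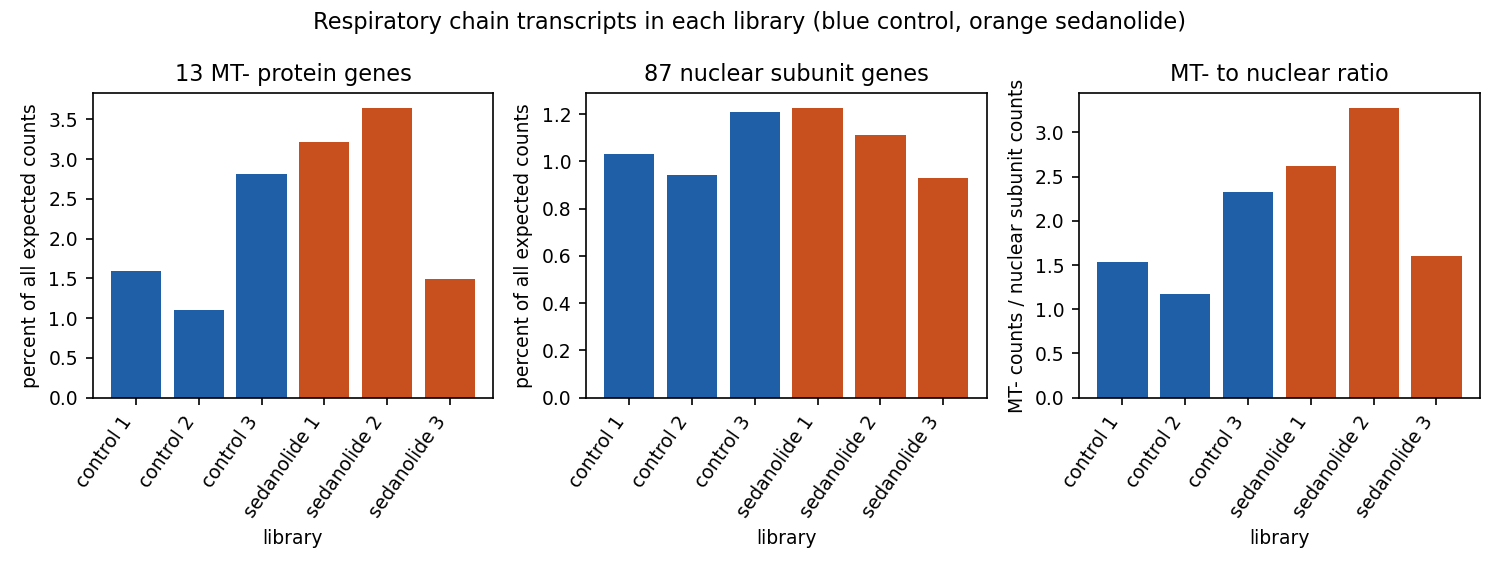
Bars give, for each of the 6 libraries (blue control, orange sedanolide), the percent of all expected counts from the 13 MT- genes, the percent from the 87 nuclear members, and the ratio of the MT- to the nuclear counts. Control 3, sedanolide 1 and sedanolide 2 are the highest in all 3 panels, and sedanolide 3 lies with controls 1 and 2.

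Of the 100 members, 93 passed the filter on low counts, all 13 MT- genes and 80 nuclear genes, among 14104 features tested (genes and the 2 reporters). In edgeR's quasi-likelihood test no member passed the call, which required a fold change of 1.5 and, after Benjamini-Hochberg adjustment, an FDR of 0.05, and which 0.674% of all features passed. DESeq2 and limma-voom also called 0 members. At an unadjusted p under 0.05, edgeR gave 2 members higher in sedanolide-treated cells (MT-ND4L and SDHB), beside 5.35% of all features, and 1 lower (ATP5F1E), beside 6.57%. The limma-voom test also gave 2 higher, beside 5.39%, and 1 lower, beside 6.88%, and DESeq2 gave 4 higher, beside 6.17% of all features, and 1 lower, beside 6.24%. Leaving out control 3 gave 13 members higher (11 MT- genes, NDUFA12 and UQCRH), beside 7.05% of all features. Leaving out sedanolide 3 gave 10 higher (8 MT- genes, SDHB and COX7A2L), beside 10.8%. Without control 1 or sedanolide 2, 0 were higher, and without control 2 or sedanolide 1, 1 was. The share of all features was not counted for these fits, so the numbers have no background beside them. When the side was added to the fit, 5 were higher (MT-ND4L, MT-CYB, MT-ATP6, MT-CO3 and SDHB), beside 9.44% of all features, and 2 lower (ATP5F1E and NDUFB5), beside 10.1%. The side was read from these same libraries, and p-values of fits with it as a term do not allow for that. In normalized CPM, MT-ND4L, SDHB and ATP5F1E were the only tested members whose 3 sedanolide libraries all lay above or all below the 3 controls. In this measure 18.3% of all features did not overlap (8.69% higher and 9.66% lower). The set differed in the authors' TPM, where control 3 and sedanolide 3 were equal for ATP5F1E (48.6). There COX4I1 and NDUFS1, among others, were lower in every sedanolide library than in any control. The share of all features was not counted for TPM, and the median log2 fold change of all features in that table was -0.074.

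The MT- genes had larger fold changes and larger standard errors than most nuclear members. All 13 MT- genes had positive fold changes in edgeR, with a median log2 fold change of 0.62 (0.14 for MT-ND6 to 0.96 for MT-ATP8) and a median standard error of 0.45. Of the 80 nuclear members tested, 59 had positive values, with a median of 0.075 (from -0.42 for ATP5F1E to 0.43 for NDUFS6) and a median standard error of 0.17, beside 50.7% positive and a median of 0.0057 over all features. These medians are descriptions of the members and were not tested. The median of the MT- genes moved with single libraries: leaving out control 3 or sedanolide 3 raised it to 1.11 or 0.96, and leaving out control 2 or sedanolide 2 lowered it to 0.36 or 0.38. When the side was added to the fit, the median was 0.27 for the MT- genes, of which 12 of 13 were positive (MT-ND6 was at -0.15), and -0.024 for the nuclear members, of which 36 of 80 were positive. The nuclear median was -0.013 without sedanolide 1 (35 of 80 positive), 0.010 without control 2, 0.19 without control 3 and 0.18 without sedanolide 3. Its sign also depended on the table, since it was -0.031 in the log2(TPM + 1) table, in which the median of all features was -0.074.

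**Figure D2:**
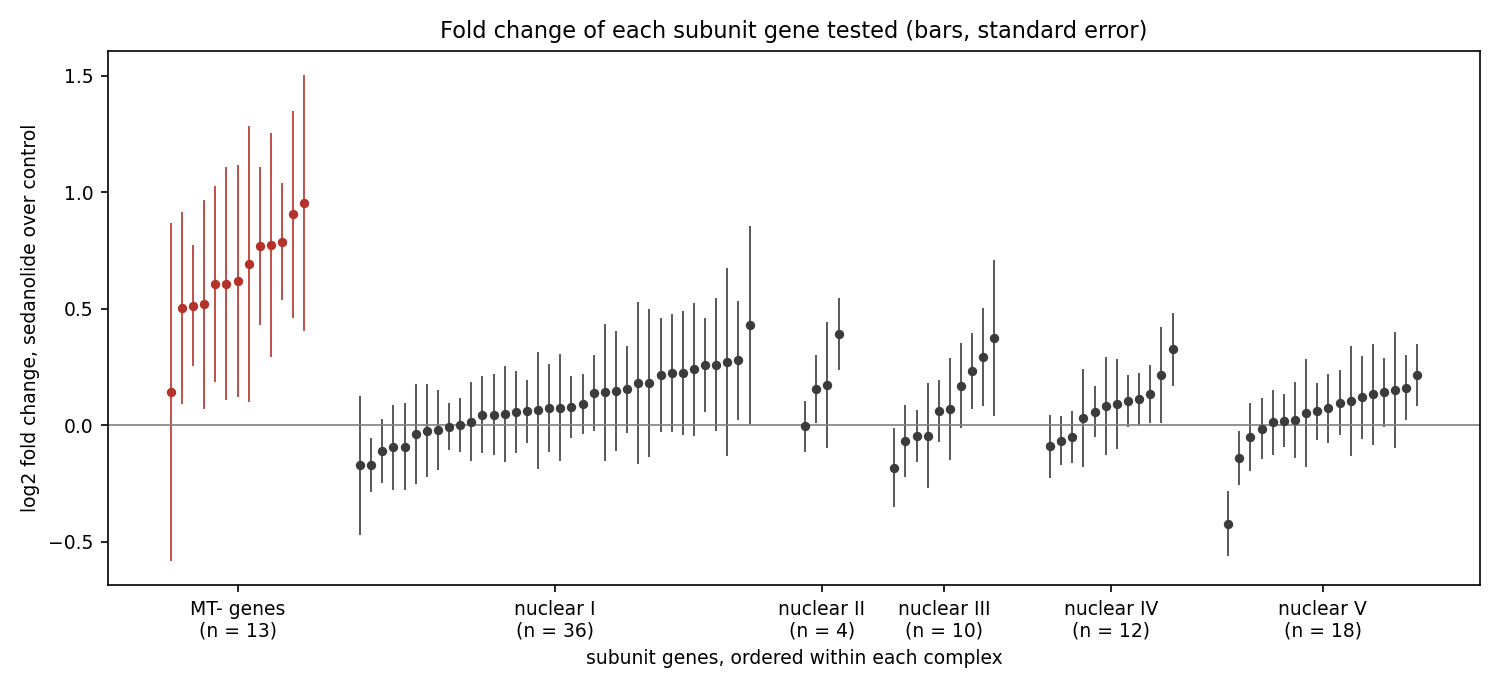
Points give the log2 fold change (sedanolide over control, edgeR) of each of the 93 members tested, ordered within the MT- genes (red) and each nuclear complex (dark grey), with bars of 1 standard error. The MT- genes lie between 0.14 and 0.96 with long bars, and the nuclear members lie between -0.42 and 0.43.

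Complex I receives electrons from NADH, and its 7 MT- genes all encode parts of the membrane arm that pumps protons. MT-ND4L was at 289, 280 and 316 normalized CPM in controls 1 to 3 and at 568, 642 and 317 in the treated libraries. The groups did not overlap, but sedanolide 3 exceeded control 3 by about 1 CPM (317.44 against 316.27). The log2 fold change was 0.79 (SE 0.25, adjusted p = 0.283). It was the only member that passed both thresholds under any of the alternatives, without sedanolide 3 (adjusted p = 0.0197, with 0.963% of all features called), and over the 17 alternatives its adjusted p was between 0.0197 and 0.918. Within the side with controls 1 and 2 the difference in log2 CPM was 0.16, and within the other side it was 0.93.

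As a share of the MT- counts, MT-ND4L was lowest in control 3 (1.13%) and highest in control 2 (2.61%). MT-ND4 was at 1900, 1526 and 2232 CPM in controls and 2430, 3701 and 1949 CPM in sedanolide-treated cells (log2 fold change 0.51, SE 0.26, adjusted p = 0.492). MT-ND5 was at 767, 587 and 1466 CPM in controls and 1694, 1816 and 783 in sedanolide-treated cells. For MT-ND4 and MT-ND5 alike, sedanolide 3 lay close to control 1.

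For MT-ND1, MT-ND2 and MT-ND3, control 3 likewise exceeded sedanolide 3. MT-ND1 was at 605 ± 309 CPM in control and 857 ± 299 in sedanolide-treated cells, MT-ND2 at 560 ± 319 and 853 ± 463, and MT-ND3 at 497 ± 383 and 802 ± 385 (mean ± SD, n = 3). Their log2 fold changes of 0.50, 0.61 and 0.69 had adjusted p-values of 0.671, 0.671 and 0.684. MT-ND6 is the only protein gene transcribed from the opposite strand (chrM:14149-14673, minus). It was at 33.2, 22.4 and 136 CPM in controls and 55.7, 120 and 35.9 in sedanolide-treated cells, so that the highest library was a control. Its log2 fold change was 0.14 (SE 0.73, adjusted p = 0.951), and it was negative with the side as a term and without control 1, control 2 or sedanolide 2. Over the 17 alternatives it was between -0.49 and 1.35, the latter without control 3. With limma-voom no MT- gene lay below 0.42.

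MT-CYB, cytochrome b of complex III, was at 622, 520 and 1187 CPM in controls 1 to 3 and at 1735, 1926 and 703 in the treated libraries. Sedanolide 1 and 2 exceeded all controls, and sedanolide 3 lay between control 1 and control 3. The log2 fold change was 0.91 (SE 0.44, adjusted p = 0.477). With the side as a term it was 0.46 with the lowest adjusted p of any member in that fit, 0.0705, where 19.5% of all features had an unadjusted p under 0.05.

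The catalytic core of complex IV, cytochrome c oxidase, comes from MT-CO1, MT-CO2 and MT-CO3, which had the highest counts of the MT- genes together with MT-ND4. MT-CO1 was at 6216, 3509 and 10668 CPM in controls and 12252, 14232 and 4839 in sedanolide-treated cells, and took 32.6% to 39.3% of all MT- counts. MT-CO3 was at 2612, 1854 and 5180 CPM in controls and 6916, 6943 and 2620 in sedanolide-treated cells. Sedanolide 3 was below control 1 for MT-CO1 and near it for MT-CO3. MT-CO2 was at 1697 ± 959 CPM in control and 2434 ± 973 in sedanolide-treated cells (n = 3). Fold changes of these 3 genes were 0.52 to 0.77 on the log2 scale, with adjusted p-values of 0.581 to 0.686.

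In complex V, MT-ATP6 was at 739, 524 and 1127 CPM in controls and 1639, 1572 and 864 in sedanolide-treated cells. Only sedanolide 3 overlapped the controls (log2 fold change 0.77, SE 0.34, adjusted p = 0.434). MTATP6P1, the nuclear copy of MT-ATP6, was higher in every sedanolide library than in any control, as were 8.69% of all features in normalized CPM. Its edgeR log2 fold change was 0.74 (adjusted p = 0.315). Whether reads of the gene were placed on the copy was not tested. MT-ATP8 was the least counted MT- gene with 13.9 to 38.3 CPM in controls and 22.1 to 78.3 in sedanolide-treated cells.

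Levels between genes were compared per length with the authors' TPM. The MT- genes summed to 27875 to 80638 TPM per library and the nuclear members to 23291 to 27104. MT-CO3 (7795 ± 3750 TPM in control cells, n = 3) and MT-CO1 (7046 ± 3320) were the highest. MT-ND3, MT-CO2 and MT-ND4L followed, between 4962 and 5222 TPM. These neighbours did not differ beyond their SD, which is a spread between libraries and does not pair genes within a library. MT-ND6 was the lowest at 281 ± 263 TPM. RNA was captured by its poly(A) tail, and how capture bears on these levels was not tested. The order of the genes depends on how length was treated. By counts per base, MT-CO1 exceeded MT-CO3 in control 1 (25.6% against 21.2% of the MT- sum), control 3 (24.0% against 22.9%) and sedanolide 2 (24.0% against 23.1%), whereas by TPM it did so only in control 1. The shortest genes moved most. MT-ATP8, of 207 bases, had a share of the MT- TPM that was 7.91 to 9.44 times its share of counts per base, MT-ND4L, of 297 bases, 2.15 to 2.27 times, and MT-ND3, of 346 bases, 1.61 to 1.67 times, while the other 10 were between 0.67 and 1.08 times.

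**Figure D3:**
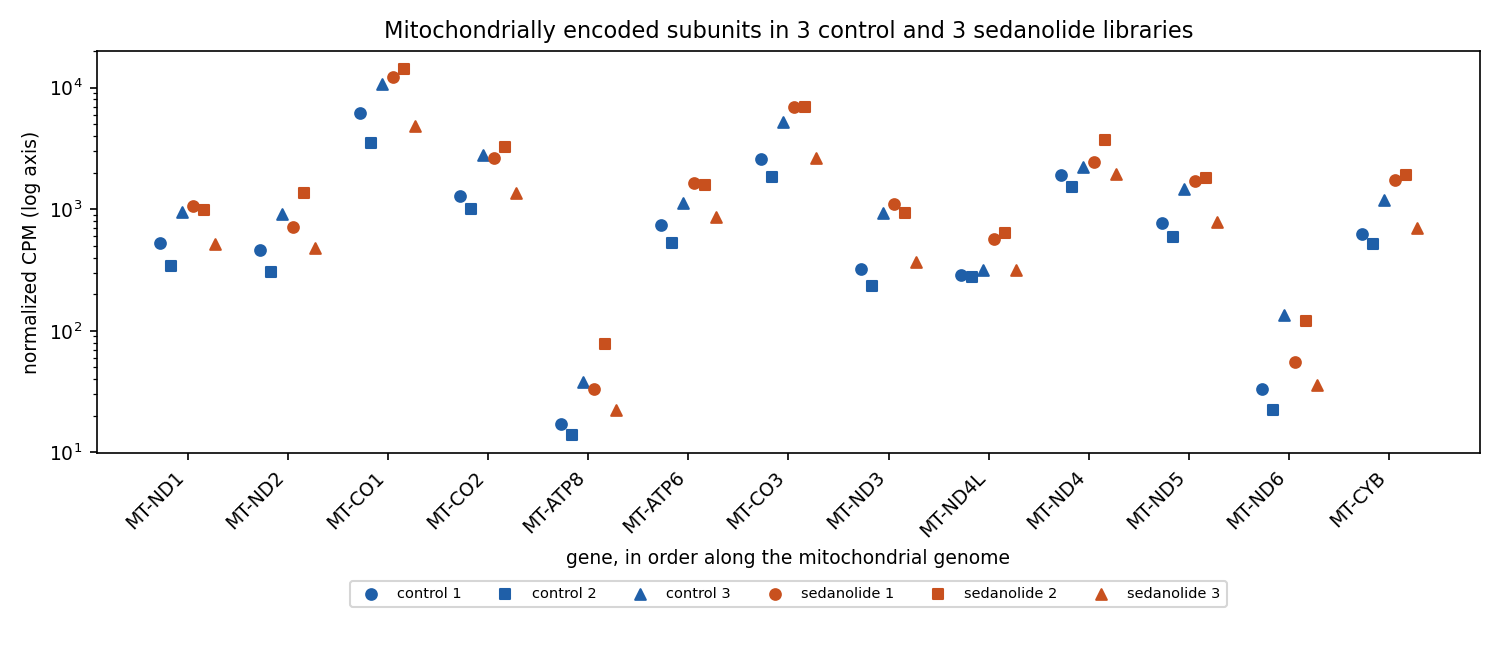
Points give the normalized CPM (log axis) of the 13 MT- genes in the order of their positions in each of 3 control (blue) and 3 sedanolide (orange) libraries. Control 3 lies near sedanolide 1 and 2 for most genes and sedanolide 3 near controls 1 and 2, whereas the 3 controls of MT-ND4L lie between 280 and 316 CPM.

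The 36 nuclear genes of complex I were all tested, and none had an unadjusted p under 0.05. Their median log2 fold change was 0.075, and 27 were positive. NDUFS1 and NDUFV1 encode subunits of the arm that takes up electrons from NADH. NDUFS1 varied little, at 233 ± 1.89 CPM in control and 232 ± 7.31 in sedanolide-treated cells (log2 fold change -0.0055, SE 0.10). NDUFV1 was at 132, 96.6 and 213 CPM in controls and 246, 193 and 93.6 in sedanolide-treated cells, so that the lowest and the highest library were both from treated cells. NDUFS6 had the largest positive fold change of the nuclear genes (log2 0.43, SE 0.42, adjusted p = 0.723) and NDUFS4 the largest negative one of complex I (-0.17, SE 0.30), both within the spread of the libraries. NDUFC2 had the highest TPM of complex I (756 ± 22.7 in control, 740 ± 23.8 in sedanolide-treated cells).

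Complex II, succinate dehydrogenase, is entirely nuclear encoded and also belongs to the citric acid cycle. SDHB (chr1:17018664-17054032, minus strand), the iron-sulfur subunit, was at 64.0, 60.1 and 68.0 CPM in controls 1 to 3 and at 99.3, 84.2 and 68.9 in the treated libraries. All 3 sedanolide libraries lay above the controls, sedanolide 3 by less than 1 CPM. The log2 fold change was 0.39 (SE 0.15, adjusted p = 0.379), and over the 17 alternatives it was between 0.25 and 0.52 with adjusted p-values of 0.127 to 0.921. SDHA, the flavoprotein, was at 203 ± 59.1 CPM in control and 229 ± 62.4 in sedanolide-treated cells, and the membrane anchor SDHC at 118 ± 7.11 and 118 ± 4.84 (n = 3), and neither passed an unadjusted p of 0.05.

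Nuclear genes of the respiratory chain are known targets of the factors NRF1 (nuclear respiratory factor 1, a different protein from NRF2 of the KEAP1 pathway), GABPA and YY1, and NRF2 binds antioxidant response elements. The promoters of 68 of the 87 nuclear members were found in RefSeq (GRCh38.p14, 250 bases before to 50 after the start), and searched on both strands. The NRF1 motif, GCGCA and GCGC with 1 base between them, was in 17 of them (25.0%, beside 5.78% of all 35116 promoters), the ETS motif CCGGAAG of GABPA in 20 (29.4% beside 10.3%), the YY1 motif AAGATGGCG in 8 (11.8% beside 1.75%) and the element TGACNNNGC in 10 (14.7% beside 13.3%). No matches of different motifs overlapped in the members' promoters. Only 1 promoter was searched per member, whereas the 35116 were not reduced to 1 per gene, so the shares are not built alike. A window could also lie away from the annotated gene, as for NDUFA5 (window chr7:123601602-123601901, gene chr7:123536997-123557904). The promoter of SDHB is shown as that of the nuclear member with the smallest p among those with a positive fold change, with its ETS and YY1 matches in capitals (chr1:17053983-17054282, minus strand).
SDHB: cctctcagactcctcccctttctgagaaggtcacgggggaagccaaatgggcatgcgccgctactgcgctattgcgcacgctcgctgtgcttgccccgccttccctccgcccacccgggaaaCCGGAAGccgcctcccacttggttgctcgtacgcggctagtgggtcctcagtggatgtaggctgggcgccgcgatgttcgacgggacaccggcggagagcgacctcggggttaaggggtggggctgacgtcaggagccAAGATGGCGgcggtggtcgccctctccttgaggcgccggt

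A match is only a run of letters, and binding was not measured. The promoter of ATP5F1E, the member with the smallest p among those with a negative fold change, held none of the 4 motifs.

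The 10 nuclear genes of complex III, which passes electrons to cytochrome c, had a median log2 fold change of 0.066, and none had an unadjusted p under 0.05. CYC1 (cytochrome c1) was at 176 ± 38.7 CPM in control and 185 ± 37.6 in sedanolide-treated cells, the core protein UQCRC1 at 325 ± 75.7 and 315 ± 68.2, and the Rieske protein UQCRFS1 at 113 ± 19.0 and 127 ± 21.9 (n = 3). UQCRH, a hinge protein, had the highest TPM of the complex (594 ± 125 in control, 684 ± 29.6 in sedanolide-treated cells). UQCRHL, a near-identical copy of UQCRH, was at 1.95 to 5.64 CPM and had the largest positive fold change (log2 0.38, SE 0.33). Its counts are uncertain, since the reads of the pair could be divided differently. UQCR10 was at 170 ± 32.3 and 150 ± 16.8 CPM, the largest negative fold change (-0.18, SE 0.17).

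Of the 18 nuclear genes of complex IV, 12 were tested, with a median log2 fold change of 0.087. The complex holds subunits with tissue-specific paralogs, and the cells showed 1 form of most. COX4I1 was at 301 ± 30.5 CPM in control and 283 ± 29.5 in sedanolide-treated cells, whereas COX4I2 had 2, 2 and 4 counts in controls and 0, 2 and 0 in sedanolide-treated cells. COX6A1 (169 ± 9.11 and 176 ± 6.72 CPM), COX6B1 (112 ± 9.26 and 123 ± 10.1), COX7B (85.8 ± 6.34 and 92.8 ± 4.17) and COX8A (144 ± 29.8 and 147 ± 31.1) were all expressed. Their paralogs COX6A2, COX6B2, COX7A1 and COX7B2 had 0 counts in all 6 libraries, which allows up to 0.183 CPM, and COX8C had 1 count in control 3.

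COX7A2L, known for its part in joining complexes III and IV into supercomplexes, had the largest positive fold change of nuclear complex IV. It was at 121, 107 and 111 CPM in controls and 157, 154 and 112 in sedanolide-treated cells, with sedanolide 3 between the controls (log2 fold change 0.33, SE 0.16, adjusted p = 0.473). Its relative COX7A2 was at 81.4 ± 14.6 and 86.8 ± 17.7 CPM. COX5A was at 163 ± 29.8 and 189 ± 40.3 CPM (n = 3), and COX4I1 had both the highest TPM of the complex (793 ± 44.6 in control cells) and its largest negative fold change (-0.09, SE 0.13).

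Of the 19 nuclear genes of complex V, 18 were tested, with a median log2 fold change of 0.066. ATP5F1E (chr20:59025475-59032345, minus strand) encodes the epsilon subunit of the catalytic head. It was at 120, 118 and 112 CPM in controls 1 to 3 and at 72.0, 96.1 and 93.0 in the treated libraries. By CPM, all sedanolide libraries lay below all controls. In the authors' TPM, control 3 and sedanolide 3 were equal at 48.6. The log2 fold change was -0.42 (SE 0.14, adjusted p = 0.296), the lowest of all members. It was -0.36 within the side with controls 1 and 2 and -0.43 within the other, and over the 17 alternatives it was between -0.53 and -0.31, with adjusted p-values of 0.114 to 0.921. Its annotated exons share 1180 bases with TUBB1 on the opposite strand, to which 7.77% as many counts were assigned. The libraries were directional, and the strand setting of the counting is not given in the sources used here.

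The alpha and beta subunits of the same head had smaller fold changes. ATP5F1A was at 878 ± 173 CPM in control and 963 ± 220 in sedanolide-treated cells (log2 fold change 0.13, SE 0.22). ATP5F1B, the nuclear member with the highest TPM (957 ± 54.5 in control, 894 ± 70.8 in sedanolide-treated cells), was at 1020 ± 131 and 1036 ± 163 CPM (0.02, SE 0.16). The 3 genes for the identical mature c subunit of the rotor were all expressed, ATP5MC3 most (346 ± 38.0 and 387 ± 45.6 CPM), followed by ATP5MC2 (174 ± 13.2 and 158 ± 8.73) and ATP5MC1 (99.1 ± 3.09 and 95.6 ± 15.6). ATP5MK had the largest positive fold change (log2 0.21, SE 0.13, adjusted p = 0.580). ATP5MGL, the member of the complex that was not tested, had 0 to 2 counts per library.

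**Figure D4:**
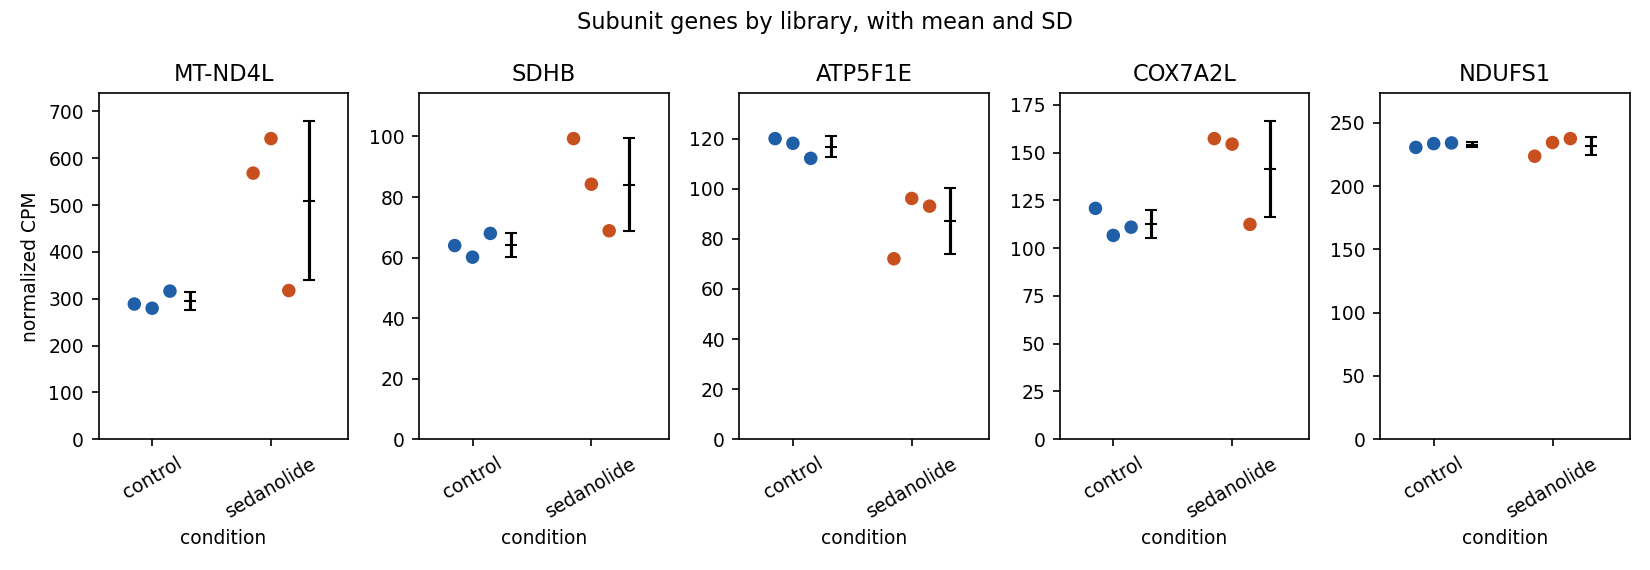
Points give the normalized CPM of 5 members in 3 control (blue) and 3 sedanolide (orange) libraries, with the mean and SD (n = 3) beside each group. The groups of MT-ND4L, SDHB and ATP5F1E do not overlap, those of COX7A2L overlap through sedanolide 3, and NDUFS1 lies between 224 and 238 CPM in all libraries.

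Libraries of the same condition differed among themselves, and in both conditions along the same split. Control 3 exceeded the mean of controls 1 and 2 by a median log2 difference of 1.19 over the MT- genes (13 of 13 positive) and 0.30 over the nuclear members (69 of 80), beside 0.018 over all features. The mean of sedanolide 1 and 2 exceeded sedanolide 3 by 1.16 over the MT- genes (13 of 13) and 0.36 over the nuclear members (63 of 80), beside 0.033 over all features. These contrasts were chosen from the sides of component 1 and are descriptions. The largest among the nuclear members were those of NDUFS6 (1.05 among controls, 1.17 among sedanolide libraries) and NDUFV1 (0.92 and 1.22), followed by NDUFA13 (0.81 and 0.79) and NDUFB7 (0.79 and 0.91), all of complex I. UQCR10 (-0.44 and -0.23), NDUFB1 (-0.46 and -0.12) and UQCR11 (-0.29 and -0.34) ran the other way. Across the 93 members, which share the 6 libraries, the contrasts had Pearson's r of 0.87, beside 0.73 over all features. Over the 80 nuclear members, GC content of the transcript had r of 0.31 and 0.21 with the contrasts and length had r of -0.10 and -0.05. Over all features with a transcript sequence, GC content had r of 0.058 and 0.065 and length had r of -0.16 and -0.20. The part of RNA quality or handling in these differences was not tested.

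**Figure D5:**
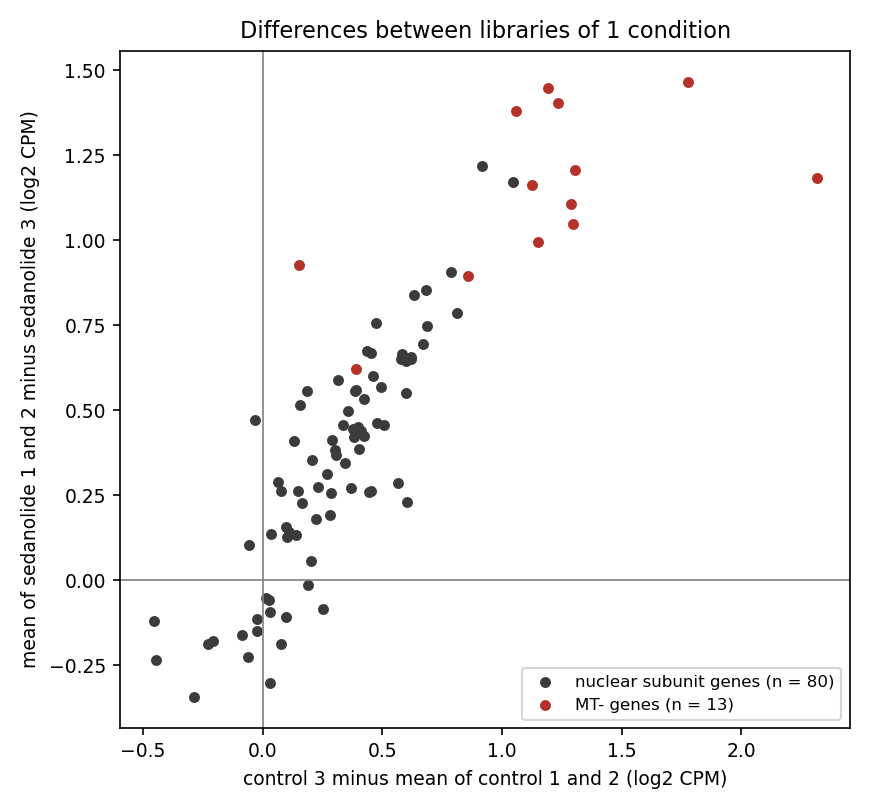
Points give, for each of 80 nuclear members (dark grey) and 13 MT- genes (red), the log2 CPM difference of control 3 from the mean of controls 1 and 2 (horizontal axis) against that of the mean of sedanolide 1 and 2 from sedanolide 3 (vertical axis). All MT- genes and 61 nuclear members are positive on both axes.

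Within the sides of component 1, sedanolide and control libraries differed less in the MT- genes than in the pooled comparison. For the MT- genes the median difference in log2 CPM was 0.28 on the side with controls 1 and 2 (13 of 13 positive) and 0.31 on the other (12 of 13, with MT-ND6 at -0.74). For the nuclear members the medians were -0.059 (27 of 80 positive) and -0.0049 (39 of 80), beside 51.7% and 51.0% positive over all features.

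Genes that serve the mitochondrial genome were read from lists of known function. The mitochondrial rRNAs MT-RNR1 and MT-RNR2, which were not counted among the members, had log2 fold changes of 0.71 (SE 0.73, adjusted p = 0.735) and 0.79 (SE 0.68, adjusted p = 0.686). When the side was added to the fit these were 0.05 and 0.11, and over the 17 alternatives they ranged from 0.05 to 1.58 and from 0.11 to 1.57. Both rRNAs together took 0.330% to 2.01% of all counts in these libraries of RNA captured by its poly(A) tail. Counts in the lists that follow stand beside 0.674% of all features called, 50.7% positive, and 5.35% higher or 6.57% lower at an unadjusted p under 0.05. None of 27 genes of mitochondrial RNA synthesis and processing was called, 24 were positive (median 0.23, and 0.17 when the side was added), and 3 had an unadjusted p under 0.05, all higher. MTERF3, a repressor of mitochondrial transcription, was at 9.81, 11.6 and 13.6 CPM in controls and 21.7, 18.5 and 16.5 in sedanolide-treated cells (log2 fold change 0.69, SE 0.17, adjusted p = 0.181), and FASTKD5, which acts in the maturation of mitochondrial mRNA, had 0.37 (adjusted p = 0.247). The groups of both did not overlap, as in 8.69% of all features in this direction. The mitochondrial RNA polymerase POLRMT (0.32, adjusted p = 0.667), the packaging factor TFAM (0.21, 0.633) and the mRNA-stabilizing pair LRPPRC (0.16, 0.633) and SLIRP (0.22, 0.765) had larger p-values.

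Of 10 genes for replication and upkeep of mitochondrial DNA, 7 were positive (median 0.29, and 0.23 when the side was added) and 5 had an unadjusted p under 0.05, all higher (beside 5.35% of all features), with none called. The helicase TWNK was at 36.5, 34.0 and 36.9 CPM in controls and 46.2, 44.7 and 48.6 in sedanolide-treated cells (log2 fold change 0.38, SE 0.11, adjusted p = 0.223), and sedanolide 3 was the highest library. POLG2, the accessory subunit of the mitochondrial DNA polymerase, had 0.47 (adjusted p = 0.268). Among 10 regulators of mitochondrial biogenesis none was called, and 7 were positive (median 0.086, and 0.15 when the side was added). PPRC1, a coactivator related to PGC-1α, had 0.39 (SE 0.11, adjusted p = 0.226), PPARGC1A (PGC-1α) 0.08 (adjusted p = 0.902) and PPARGC1B 0.68 (adjusted p = 0.445). PPARGC1B was called with the side as a term (0.93, adjusted p = 0.0104, with 2.7% of all features called). That p-value does not allow for the side having been read from these libraries.

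Of the assembly factors, 13 of 15 for complex I were positive (median 0.24, 3 with an unadjusted p under 0.05, all higher) and 20 of 33 for complexes II to V (median 0.028, 2 higher), beside 50.7% positive and 5.35% higher over all features, and none was called. When the side was added to the fit, the medians were 0.024 and 0.010. NDUFAF4 was at 17.0, 20.2 and 18.3 CPM in controls and 33.3, 24.9 and 25.8 in sedanolide-treated cells (log2 fold change 0.59, SE 0.15, adjusted p = 0.191), and NDUFAF7 had 0.36 (adjusted p = 0.333). For complexes II to V, COA7 and COX10, both of complex IV assembly, had 0.47 (adjusted p = 0.289) and 0.37 (adjusted p = 0.408). DESeq2 called NDUFAF4 (adjusted p = 0.0396) and MTERF3 (adjusted p = 0.0234) higher, where it called 2.33% of all features.

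Among 22 genes of electron carriers and entry points into the chain, 21 were tested and 1 was called. COQ10A, a coenzyme Q-binding protein, fell from 14.9, 16.6 and 16.3 CPM in controls to 8.23, 8.92 and 8.76 in sedanolide-treated cells (log2 fold change -0.88, SE 0.12, edgeR adjusted p = 0.0307). Its groups did not overlap, and it passed both thresholds in 11 of 17 alternatives, with adjusted p-values of 1.7e-06 to 0.492. CYCS, cytochrome c, was at 167, 175 and 192 CPM in controls and 248, 239 and 202 in sedanolide-treated cells (0.37, SE 0.13, adjusted p = 0.318). The median of the list was -0.0004 (-0.10 when the side was added), and 10 of 21 were positive.

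The 78 genes of mitochondrial ribosomal proteins, which translate the MT- mRNAs, had a median of 0.17 with 69 positive, beside 50.7% of all features, and none was called. When the side was added to the fit, the median was 0.054. MRPL24 (0.44, adjusted p = 0.311) and MRPL49 (-0.44, adjusted p = 0.249) had the smallest p-values, 1 in each direction. Of the subunits that the symbols did not take in, ATP5IF1 had -0.27 (adjusted p = 0.387) and NDUFAB1 0.26 (adjusted p = 0.705).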

How the data were processed

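Labels placed 3 libraries in each condition. RNA was captured by its poly(A) tail and sequenced in directional libraries as 150 bp paired-end reads, which the authors checked with FastQC, trimmed with Trimmomatic, aligned to GRCh38 with STAR and quantified with RSEM. Versions, annotation release and strand setting are not given in the sources used here. The authors deposited expected counts of 61541 genes, not normalized, of which 7.90% to 8.59% of values are not whole, and a table of log2(TPM + 1) for 11006 features, whose filter is not stated. Recovered TPM summed to 988500.3 to 994763.8 per library. Multi-mapped reads were divided by RSEM, and 33 members have values that are not whole.

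Counts were rounded and fitted in R 4.3.3 with edgeR 4.0.16 (filterByExpr, TMM, robust quasi-likelihood, condition as the only term), with p-values adjusted by Benjamini-Hochberg over all features and calls at an FDR of 0.05 with a fold change of 1.5. Normalized CPM are mean ± SD of 3 libraries. Positions came from GENCODE 44, which held 61369 of the identifiers, and promoters from RefSeq. Members and gene lists were chosen with earlier results of these data known. Named were all MT- genes, the highest-TPM member and both extreme fold changes per nuclear complex, members at an unadjusted p under 0.05, tissue-specific paralogs, fixed core subunits, and in each list the called genes, the 2 with the smallest p and 8 fixed genes. NDUFA12, NDUFA13, NDUFB5, NDUFB7, NDUFB1, UQCR11, PPARGC1B and ATP5MGL were named after their values were seen. Alternatives were DESeq2 1.42.0 (the authors' test, in iDEP), limma 3.58.1 (voom, and the TPM table), other scalings and filters, the replicate number or the side of component 1 as a term, and each library left out. The procedure was tested on simulated data. Libraries within a condition differed by more than sampling noise.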

Additional observations from a re-analysis of the deposited data

How the results depend on the processing

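Under every alternative to the edgeR fit 0 members were called lower, and 0 were called higher except without sedanolide 3, where 1 was (range 0 to 1 over the libraries left out). Members higher at an unadjusted p under 0.05 numbered 2, and 4 with DESeq2, 3 without a filter on low counts, 5 with the side as a term, 1 with log2(TPM + 0.1), and 0 to 13 with a library left out. Members lower numbered 1, and 2 with the side as a term and 0 to 1 with a library left out. Shares of all features at this threshold were counted only for the fits that have them above. With the replicate block both numbers were 0, and no feature was called. Deviations of same-numbered libraries from their group means had correlations of -0.13, -0.30 and -0.73. For replicate 3 this is the correlation of 0.73 between the contrasts of libraries, with its sign changed. These values cannot show whether same-numbered libraries were handled together. Genes of the lists called higher numbered 0, and 2 with DESeq2 and 1 with the side as a term. The causes were not tested. Of 816 values of 48 tested members described by name, 68 had another sign than in the edgeR fit, and no called value changed sign. With 3 libraries per condition, an exact permutation test of a single value cannot give a p below 0.1.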
